A study of Mus musculus with 5 samples.

Results

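Exons from 37 nt to under 300 nt that lie between 2 short introns, each under 1000 nt, were followed in the left ventricle of diabetic and control mice. They were chosen by exon and intron length alone, without any measured value, and came to 1014 of the 6331 cassette exons listed in all 6 deposited tables. Each table compared the splicing of a single library with that of another. The 1014 exons fell into 922 groups of overlapping exons, and 822 named genes held them. The median exon was 102 nt long, with an intron of 342 nt before it and of 288.5 nt after it (medians), and the shortest introns were 56 and 67 nt. Of the 1014 exons, 847 in 686 genes had at least 10 informative reads in every library and were tested, and 167 were not. The libraries held 2713613 to 3527904 reads of all classes on the 1014 exons, of which 760771 to 980515 were informative. The median tested exon had 182 and 230 informative reads in Control and 118 to 127 in STZ.

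RNA came from the left ventricle of C57BL/6 mice that were 12 weeks old. From the age of 8 weeks the mice were injected into the peritoneum on 5 days, Control mice with citrate buffer and STZ mice with streptozotocin at 70 mg/kg a day. Streptozotocin is toxic to pancreatic beta cells, which make insulin, and serves as a chemical model of type 1 diabetes. There were 2 Control and 3 STZ libraries, and the labels do not say that each came from a separate animal, so the p-values measure the spread between these samples, which may be technical. The tables name libraries by codes that match no sample label. The side with 2 codes was taken as Control and the side with 3 as STZ from the group sizes alone, and letters tell the libraries of a group apart. The codes come in 2 series that divide as the groups do, so any step handled by series and the treatment cannot be told apart.

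A cassette exon is one that the spliced transcript either keeps or skips. Where the introns on both sides are short, splice sites can pair across the intron, whereas long introns are recognised mainly through splice sites that pair across the exon. Short introns tend to lie in GC-rich genes, and an exon between a pair of them can be skipped, kept, or left joined to an unspliced intron. The measure of inclusion is Psi, a fraction from 0 (always skipped) to 1 (always kept), which the authors estimated with MISO. MISO weighs reads that fit only the transcript with the exon (inclusion-only), only the one without it (exclusion-only), or both, and it corrects for the larger number of read positions that an included exon offers. Informative reads are the first and second of these classes together. A further class fits neither isoform, and can hold reads that run into an intron.

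The sequences of 8 such exons show the range described below. Each is given 5′ to 3′ on the strand of the gene, with the exon in capitals and 12 bases of each neighbouring exon in lower case, as they join in the spliced transcript. All 8 lie wholly inside the coding sequence of a transcript in GENCODE M21, from which the letters were read after a match of exon and intron lengths. Positions are mm9, 1-based, as the files give them. The first 5 had lower Psi in STZ and come from genes of chromatin regulators, the next 2 had higher Psi, and the last stands between the smallest pair of introns of any of the 1014 exons and was not called.
Ehmt2, chr17:35042555-35042656, plus strand: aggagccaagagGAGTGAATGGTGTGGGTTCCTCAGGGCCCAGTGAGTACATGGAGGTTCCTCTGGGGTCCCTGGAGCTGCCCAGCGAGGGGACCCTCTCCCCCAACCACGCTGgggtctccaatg
Hdac7, chr15:97639091-97639201, minus strand: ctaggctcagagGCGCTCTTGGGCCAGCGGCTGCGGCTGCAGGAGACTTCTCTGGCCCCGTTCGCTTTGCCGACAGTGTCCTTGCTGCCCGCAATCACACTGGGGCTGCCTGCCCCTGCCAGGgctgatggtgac
Chd3, chr11:69162212-69162313, minus strand: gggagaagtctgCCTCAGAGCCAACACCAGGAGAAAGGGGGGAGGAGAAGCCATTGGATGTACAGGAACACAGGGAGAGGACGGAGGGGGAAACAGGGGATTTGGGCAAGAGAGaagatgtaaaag
Kdm5c, chrX:148705237-148705374, plus strand: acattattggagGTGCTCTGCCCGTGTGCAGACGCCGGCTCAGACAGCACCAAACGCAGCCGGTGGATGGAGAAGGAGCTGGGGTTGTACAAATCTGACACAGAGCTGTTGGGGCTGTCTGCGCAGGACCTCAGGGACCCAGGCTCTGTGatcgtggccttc
Kat7, chr11:95137757-95137863, minus strand: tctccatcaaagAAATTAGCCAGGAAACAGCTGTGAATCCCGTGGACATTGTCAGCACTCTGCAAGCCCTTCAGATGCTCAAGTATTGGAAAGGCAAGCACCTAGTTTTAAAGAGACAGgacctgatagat
Bcor, chrX:11632765-11632818, minus strand: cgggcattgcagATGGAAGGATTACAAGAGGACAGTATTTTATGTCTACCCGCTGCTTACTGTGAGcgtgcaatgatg
Ktn1, chr14:48345604-48345675, plus strand: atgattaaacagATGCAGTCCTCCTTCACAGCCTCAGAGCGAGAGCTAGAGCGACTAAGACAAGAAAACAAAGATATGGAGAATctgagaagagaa
Hsf1, chr15:76330561-76330626, plus strand: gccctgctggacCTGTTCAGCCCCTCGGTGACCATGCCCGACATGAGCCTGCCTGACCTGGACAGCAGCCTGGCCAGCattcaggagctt

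The GC content of these exons was 64.7% for Ehmt2, 68.5% for Hdac7, 57.8% for Chd3, 62.3% for Kdm5c, 45.8% for Kat7, 42.6% for Bcor, 45.8% for Ktn1 and 66.7% for Hsf1. Over the 939 members with a matched transcript the median GC content was 54.3%. It was 50% over exons of the same lengths with 1 short intron and 48.3% over those between long introns. The last bases before the splice site did not set the class apart by count: 54.2% of the short-intron exons ended in AG, against 55.9% and 54.3% of the other 2 classes. A length that is a multiple of 3, which keeps the reading frame whether the exon is kept or skipped, was found in 42.6% of the short-intron exons, in 43.5% of those with 1 short intron and in 45.1% of those between long introns. Skipping was an annotated junction for 749 of the 1014.

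Most short-intron exons were kept in most transcripts, and the groups differed in a minority of them, mainly towards lower inclusion in STZ. The median Psi over the 847 tested exons was 0.91 in Control A and 0.93 in Control B. It was 0.87 in STZ A, 0.88 in STZ B and 0.87 in STZ C, and values of the groups are given in that order from here on. All 3 STZ medians were below both Control medians. The same held over all 4769 tested exons of the study, with medians of 0.86 and 0.88 against 0.82, 0.81 and 0.80. On average, Psi of an exon differed by 0.0368 between the Control libraries, by 0.0427 to 0.0468 between STZ libraries, and by 0.0846 to 0.0901 between a Control and an STZ library. The median change of Psi was only -0.0083, with quartiles of -0.062 and 0.0083, so the lower medians came with small differences in most exons. Psi was lower in STZ for 519 exons, higher for 276 and the same for 52. Over all tested exons of the study it was lower for 2852, higher for 1661 and the same for 256. The share of inclusion-only reads among informative reads had a median change of -3.67e-05 over the short-intron exons.

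STZ was compared with Control by limma on the log2 odds of Psi, two-sided, with Benjamini-Hochberg adjustment over all 4769 tested exons of the study. An exon was called at an adjusted p under 0.05. Of the 847 short-intron exons, 159 (18.8%) were called, against a background of 15.0% of all tested exons. Inclusion rose in 47 of them and fell in 112, against 4.84% and 10.1% of all tested exons called in each direction. The called exons lay in 148 genes and 154 groups of overlapping exons. Among the exons of the same lengths, 15.8% of 1352 with 1 short intron and 13.5% of 2046 between long introns were called. The median short-intron exon had 813 informative reads over the 5 libraries and the median of all tested exons had 692, and the part of depth in these shares was not tested. Control and STZ values did not overlap in 363 short-intron exons (42.9%), which equals the background of 42.9%. A called change of at least 0.10 was seen in 113 exons, 31 higher and 82 lower, against 10.2% of all tested exons.

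**Figure D1:**
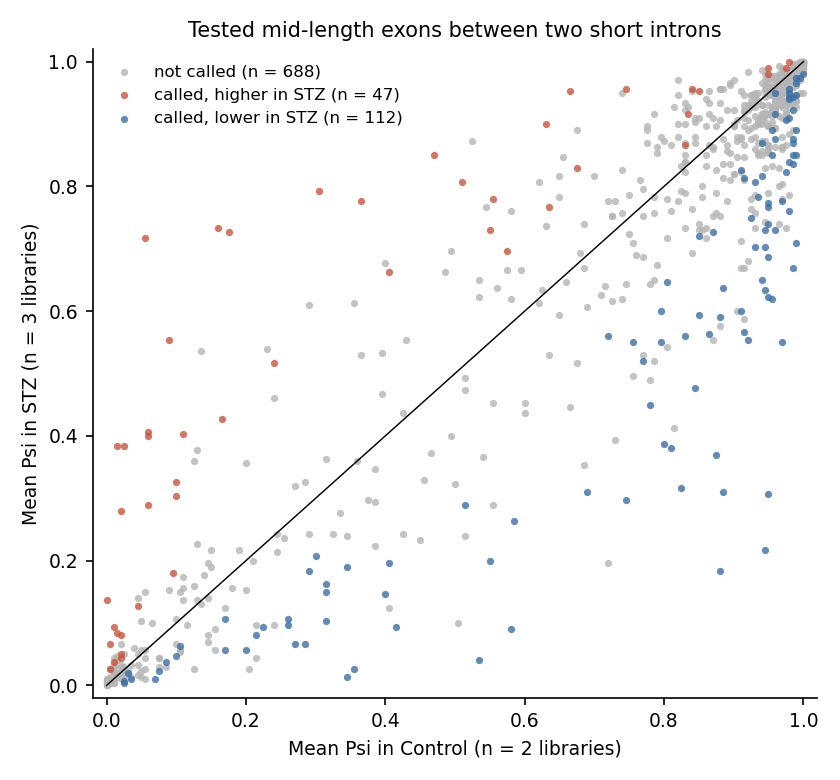
Mean Psi of each of the 847 tested short-intron exons in Control (x axis, 2 libraries) and STZ (y axis, 3 libraries), both as fractions from 0 to 1. The line marks equal inclusion; the 112 exons called lower lie below it, many of them at the high end of Control inclusion, and the 47 called higher lie above it.

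**Figure D2:**
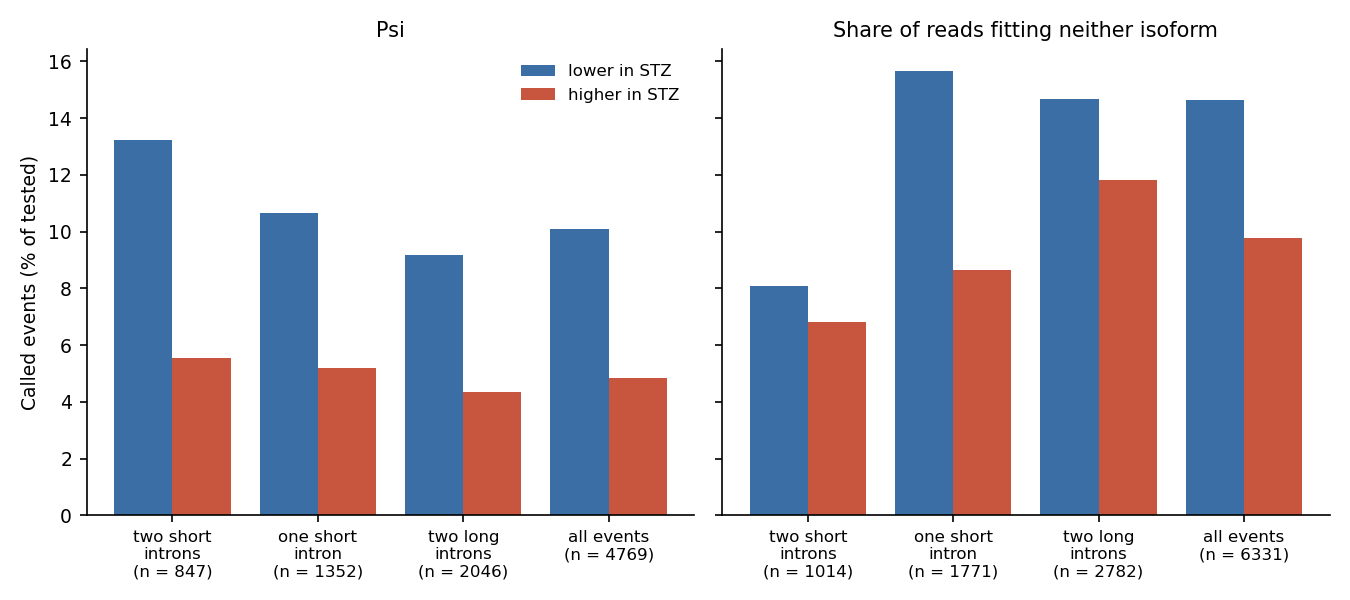
Percent of events called lower (blue) and higher (red) in STZ, for Psi (left) and for the share of reads that fit neither isoform (right), by the length of the flanking introns. The short-intron exons have the tallest bar for lower Psi of the 4 classes and the shortest pair of bars for the share of reads that fit neither isoform.

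The calls rest on 5 libraries, and many were sensitive to the loss of 1. Leaving out 1 library at a time left 70 to 94 called short-intron exons. Of the 159, 33 remained called whichever library was left out and 37 were called only with all 5. Whether exclusion-only reads moved with Psi was also counted. Of the 159, 29 had fewer than 10 exclusion-only reads over all 5 libraries together, so their Psi moved with little or no direct count of skipped transcripts. Of the other 130, 41 rose and 89 fell, and 94 were also called in the same direction in a fit to the log2 odds of inclusion-only to exclusion-only reads, which calls 20.3% of all tested exons. Left ventricle is a mixture of cell types, and in such bulk RNA a change in the cells present and a change of splicing within a cell cannot be told apart.

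The markers of the cell types of the heart were read only through the cassette events in their genes, in reads per 1000000 event reads. Those of cardiomyocytes, with an event in 5 of 9 genes, stood at 42631 and 44023 in Control and at 37903 to 48781 in STZ. The endothelial list had an event in 1 of 5 genes, Pecam1, at 1396 and 1548 in Control and 3107 to 5332 in STZ. The smooth muscle list, with events in Myh11 and Smtn of 4 genes, stood at 2620 and 2749 in Control and at 759 to 963 in STZ. Fibroblast genes (2 of 6) went from 213 and 239 to between 98.0 and 165, and leukocyte genes (3 of 5) lay at 130 and 188 in Control and at 67.7 to 161 in STZ. The endothelial list was thus higher in STZ, and the smooth muscle and fibroblast lists lower, with no overlap between the groups, and their part in the changes of Psi was not tested.

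Among the 12 largest called falls, the one with the most informative reads was in Ehmt2, which encodes a histone methyltransferase of silent chromatin, also called G9a. Its 102-nt exon, exon 9 of 27, lies between introns of 153 and 198 nt. Psi was 0.72 and 0.77 in Control and 0.29, 0.33 and 0.27 in STZ, a mean of 0.745 ± 0.0354 (SD, n = 2) against 0.297 ± 0.0306 (SD, n = 3), with an adjusted p of 0.00886 in limma. The groups were far apart, and the call held with each library left out in turn. Reads of skipping alone were 31 and 40 in Control and 144, 140 and 147 in STZ, while inclusion-only reads were 219 and 334 against 159, 199 and 146. Skipped transcripts were thus counted directly in every library, and more of them in each STZ library than in either Control library.

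Other regulators of chromatin had short-intron exons with lower Psi in STZ. In the list of genes for chromatin and transcription, chosen by symbol, 2 of 45 tested short-intron exons rose (4.44%) and 7 fell (15.6%). Over all tested short-intron exons 5.55% rose and 13.2% fell. In the list 20% were called, against 14.3% of its tested exons in the whole study and 18.8% of all tested short-intron exons. Ehmt2 is outside the list, as are Bcor and Lrif1, whose exons rose in STZ and are described below. The 111-nt exon of Hdac7, a histone deacetylase, had Psi of 0.37 and 0.32 in Control and of 0.01, 0.01 and 0.02 in STZ, with an adjusted p of 0.0107 in limma. Inclusion-only reads of this exon numbered 84 and 87 in Control and 1, 2 and 5 in STZ, so the exon was nearly absent from the STZ libraries; its call was lost without Control A or without Control B (adjusted p up to 0.0677). The 102-nt exon of Chd3, a helicase of the NuRD repressor complex, went from 0.76 and 0.86 to 0.36, 0.39 and 0.39 (adjusted p 0.0228), and this call was lost when any STZ library was left out. The 138-nt exon of Kdm5c, a histone demethylase, went from 0.92 and 0.96 to 0.64, 0.66 and 0.65 (adjusted p 0.021), with the same loss. The 107-nt exon of Kat7, a histone acetyltransferase, went from 0.90 and 0.93 to 0.58, 0.58 and 0.54 (adjusted p 0.00887), and this call held with each library left out. In all 4 exons the STZ values lay within 0.04 of each other. They lay below both Control values, as in every short-intron exon called lower. Hmgxb4, Chd8 and Smarcc2 held the other 3 falls of the list; the calls in Chd8 and Smarcc2 were lost whichever library was left out, and that in Hmgxb4 on leaving out any but STZ C. The call of the rise in Zfp963 (mean 0.84 to 0.96) was lost whichever library was left out.

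Inclusion fell more often than it rose in genes of RNA processing. Of 51 tested short-intron exons of this list, 3 rose and 16 fell, 37.3% against 30.3% of that list's tested exons in the whole study. Several of these events share an exon or a gene, with pairs in Mettl3, Ptbp1, U2af1l4 and Pabpc4, so the 19 calls are not 19 independent changes. Ptbp1, a repressor of alternative exons, held a 78-nt exon at 0.52 and 0.58 in Control and at 0.24, 0.18 and 0.18 in STZ (adjusted p 0.018). Its exclusion-only reads were 45 and 49 against 127, 76 and 124, and the call was lost on leaving out any library but STZ A. Hnrnpab, which encodes an RNA-binding protein, had a 141-nt exon at 0.53 and 0.50 against 0.28, 0.30 and 0.29 (adjusted p 0.0066), with 484 and 542 against 730, 726 and 670 exclusion-only reads and a call that held with each library left out. The replicates of Hnrnpab differed by at most 0.03.

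Hnrnpa2b1, another RNA-binding protein gene, had a 120-nt exon at 0.77 and 0.79 against 0.39, 0.50 and 0.46 (adjusted p 0.0189, lost without either Control library or STZ C). Rbm5, a regulator of splicing, had an 85-nt exon at 0.95 and 0.99 against 0.59, 0.51 and 0.55 (adjusted p 0.0366, lost on leaving out any STZ library). U2af1l4, a relative of the splicing factor that recognises the end of the intron, had a 134-nt exon at 0.98 and 0.99 against 0.51, 0.76 and 0.74 (adjusted p 0.0283, lost on leaving out any library but STZ A). All STZ values of these 3 exons lay below all Control values, as in every short-intron exon called lower. The rises were in Rbm7, a subunit of a nuclear complex that hands RNA to the exosome, in Luc7l (0.74 and 0.75 against 0.97, 0.93 and 0.97) and in Hnrnpdl (0.42 and 0.39 against 0.70, 0.62 and 0.67). The calls in Luc7l and Hnrnpdl were lost on leaving out any library but STZ B.

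Mettl3, the catalytic subunit of the enzyme that writes m6A marks on RNA, held a pair of separate short-intron exons with lower Psi. The 176-nt exon, exon 4 of 11, was at 0.91 and 0.86 in Control and at 0.28, 0.36 and 0.29 in STZ (adjusted p 0.0107, held with each library left out). Its inclusion-only reads were 257 and 300 against 21, 26 and 25, while its exclusion-only reads were 12 and 24 against 18, 17 and 20. The reads of inclusion were thus fewer in STZ and those of skipping were at about the Control level. The 66-nt exon, exon 9 of 11, was at 0.95 and 0.95 against 0.27, 0.32 and 0.33 (adjusted p 0.00267, held with each library left out), yet no exclusion-only read was counted in any library. Its inclusion-only reads were 72 and 85 against 11, 16 and 13. A count of 0 allows, at 3 reads, a share of skipping reads of up to 1.91% of the 157 informative reads in Control and 7.5% of the 40 in STZ, for counting error only. No direct read of skipping thus accompanied the lower Psi of this exon.

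A few further large falls were of the same kind, with few direct reads of skipping. In Arvcf, a catenin of cell junctions, the 120-nt exon went from 0.87 and 0.89 to 0.24, 0.17 and 0.14 (adjusted p 0.00856, lost without Control A or Control B). Reads of skipping alone were 2 and 3 in Control and 1, 0 and 0 in STZ, and in the fit to reads alone the direction was reversed (a log2 odds change of 1.00, adjusted p 0.252). Ggcx, the carboxylase that activates clotting factors with vitamin K, went from 0.84 and 0.91 to 0.29, 0.36 and 0.46 (adjusted p 0.0271, lost whichever library was left out) with 2 and 1 reads of skipping alone in Control against 1, 2 and 0 in STZ. The fit to reads called Ggcx lower too (a log2 odds change of -3.53, adjusted p 0.0222), with inclusion-only reads of 532 in Control and 43 in STZ and 3 exclusion-only reads in each group. Reads of skipping were thus no more numerous in STZ for either gene.

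Falls with direct reads of skipping were also seen outside those lists. Dpp7, a peptidase of the lysosome, had the largest called fall, in a 119-nt exon at 0.93 and 0.96 in Control and 0.27, 0.23 and 0.15 in STZ (adjusted p 0.011, lost without Control B or STZ B). No exclusion-only read was counted among 69 informative reads in Control, which allows a share of up to 4.35%, and 6, 10 and 10 were counted in STZ beside 9, 11 and 10 of inclusion. The depth of this exon was low. Plpp5, a lipid phosphatase, had an 83-nt exon at 0.57 and 0.50 against 0.05, 0.03 and 0.04 (adjusted p 0.00736, held with each library left out), with 41 and 36 against 88, 89 and 82 exclusion-only reads. Ip6k2, a kinase of inositol phosphates, had a 129-nt exon at 0.58 and 0.58 against 0.06, 0.15 and 0.06 (adjusted p 0.0318, lost on leaving out any library but STZ B). In Plpp5 and Ip6k2 the skipping isoform was already present in Control. Irf7, a transcription factor of the interferon response, had a 291-nt exon at 0.85 and 0.75 against 0.42, 0.33 and 0.41 (adjusted p 0.0288, lost whichever library was left out).

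The largest rises were of exons that Control transcripts mostly skipped. Lrif1, which encodes a nuclear protein that binds heterochromatin, had a 270-nt exon at 0.07 and 0.04 in Control and at 0.71, 0.66 and 0.78 in STZ, a mean of 0.055 ± 0.0212 (SD, n = 2) against 0.717 ± 0.0603 (SD, n = 3), with an adjusted p of 0.0106 in limma. Its inclusion-only reads were 16 and 13 against 196, 133 and 142, and its exclusion-only reads were 63 and 117 against 14, 13 and 7. The isoform that was rare in Control was thus the main one in STZ. Rbm7 had a 105-nt exon at 0.14 and 0.18 against 0.72, 0.74 and 0.74 (adjusted p 0.00395), and Hspa13, a chaperone of the Hsp70 family, had a 96-nt exon at 0.02 and 0.03 against 0.40, 0.36 and 0.39 (adjusted p 0.00605). Armcx5 had a 52-nt exon at 0.32 and 0.29 against 0.81, 0.79 and 0.78 (adjusted p 0.0047). The calls in Lrif1, Rbm7, Hspa13 and Armcx5 held with each library left out.

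Eif4a2, an RNA helicase of translation initiation, had the best covered of the large rises. Its 111-nt event was at 0.09 and 0.09 in Control and at 0.59, 0.53 and 0.54 in STZ (adjusted p 0.00267, held with each library left out), with 398 and 482 inclusion-only reads against 4011, 3316 and 1996. Its 107-nt event shares the same exon start and is therefore no second observation; it was at 0.06 in both Control libraries and at 0.42, 0.39 and 0.41 in STZ. Ctsa, a protease of the lysosome, had a 127-nt exon at 0.36 and 0.37 against 0.73, 0.78 and 0.82 (adjusted p 0.0162, lost without Control A, Control B or STZ B). Bcor, a transcriptional corepressor, had a 54-nt coding exon at 0.51 and 0.43 against 0.88, 0.78 and 0.89 (adjusted p 0.0419, lost on leaving out any library but STZ B). Reck, an inhibitor of matrix metalloproteinases, had a 177-nt exon at 0.02 and 0.01 against 0.27, 0.63 and 0.25 (adjusted p 0.0455, lost whichever library was left out), with 0 and 0 against 19, 15 and 10 inclusion-only reads and STZ B apart from the other two STZ libraries. Ktn1, which encodes the kinesin-binding protein kinectin, had a 72-nt coding exon at 0.65 and 0.68 against 0.95, 0.96 and 0.95 (adjusted p 0.00398, held with each library left out).

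**Figure D3:**
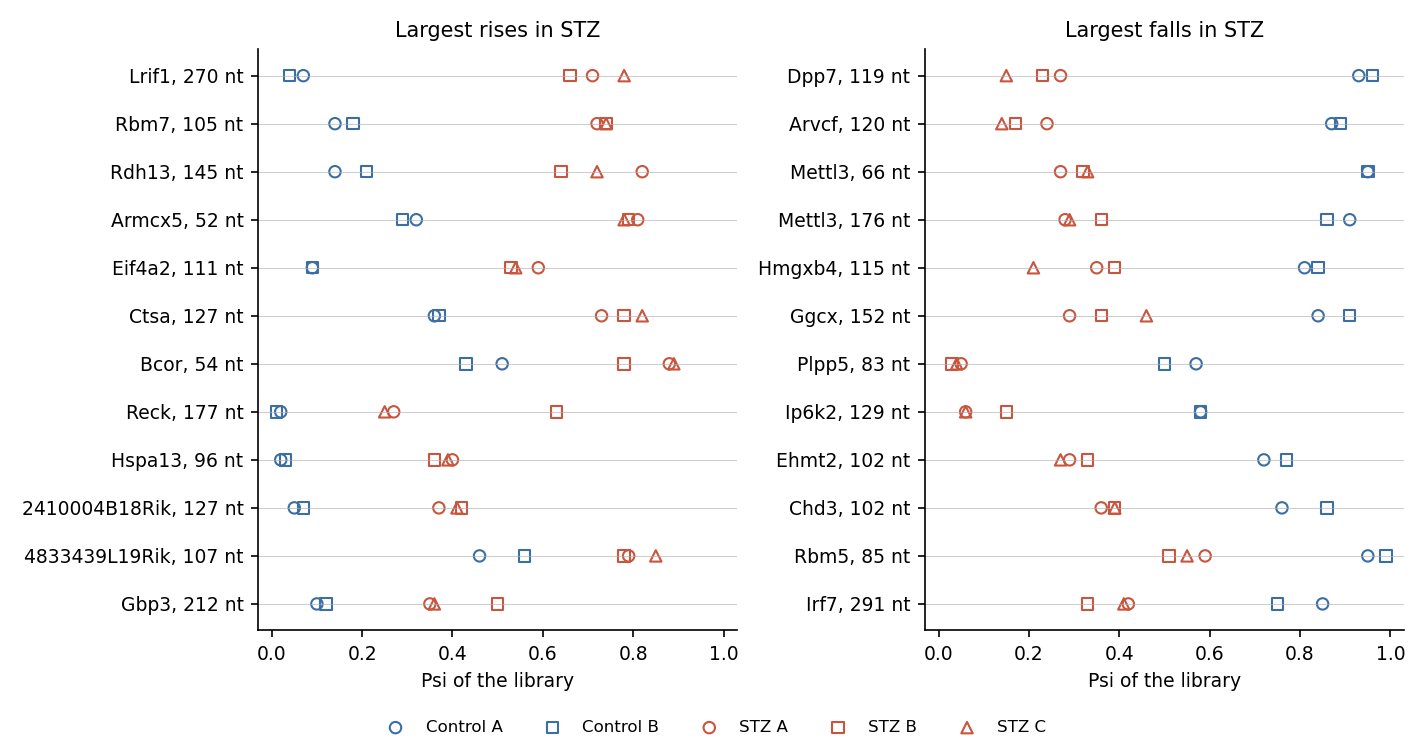
Psi in each of the 5 libraries for the 12 largest called rises (left) and the 12 largest called falls (right) among short-intron exons, 1 event per group of overlapping exons, with Control in blue and STZ in red. Only exons whose groups do not overlap were taken, so in every line the Control symbols lie on one side of the STZ symbols. The STZ values of Reck are the most widely spread, from 0.25 to 0.63.

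Exons with higher and lower Psi differed in where they lay in the annotated transcripts. Of the 112 exons that fell, 81 (72.3%) lay wholly in the coding sequence of a protein-coding transcript, as did 472 of the 688 that were not called (68.6%) and 12 of the 47 that rose (25.5%). Exons that matched a transcript marked for nonsense-mediated decay and no protein-coding transcript made up 12 of the 47 that rose (25.5%), 8 of the 112 that fell (7.14%) and 53 of the 688 not called (7.70%). Nonsense-mediated decay destroys transcripts with an early stop codon, and the match says only that such a transcript holds the exon, not that the exon brings the stop codon. Over all 231 tested exons of the study that rose, these included, 17.3% were of that kind and 40.3% were wholly coding, and over all 482 that fell, 4.77% and 62.9%. The contrast was thus seen in the whole study too, and it was not tested here whether the short-intron exons differ from the others in it. Control inclusion differed between these kinds of short-intron exon. Median Psi in Control was 0.95 and 0.96 for the wholly coding exons and 0.14 and 0.16 for those of decay transcripts only. An exon near 1 can hardly rise and one near 0 can hardly fall, and the part of this in the contrast was not tested.

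Among the 12 rises of that kind were those in Lrif1, Rbm7, Hspa13, 2410004B18Rik, Hnrnpdl, Rabggtb, Luc7l, Dmac2, Carm1, Rrm1 and Rps9. They ranged from Lrif1, at 0.055 in Control and 0.717 in STZ, down to shifts between low levels, as in Rps9, a ribosomal protein gene, at 0.01 against 0.04. Rabggtb, a subunit of the enzyme that attaches lipids to Rab proteins, had a 98-nt exon at 0.17 and 0.16 against 0.43, 0.46 and 0.39 (adjusted p 0.0107 in limma, lost without Control A or Control B). The exon of 2410004B18Rik, 127 nt long, was at 0.05 and 0.07 against 0.37, 0.42 and 0.41 (adjusted p 0.00804, held with each library left out). Control inclusion was below 0.2 in all of these named exons but Hnrnpdl and Luc7l. The 8 falls of that kind were in Hmgxb4, Ip6k2, Stoml1, Ankrd16, Bclaf1, Dnajc5, Cpsf7 and Srrm2.

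**Figure D4:**
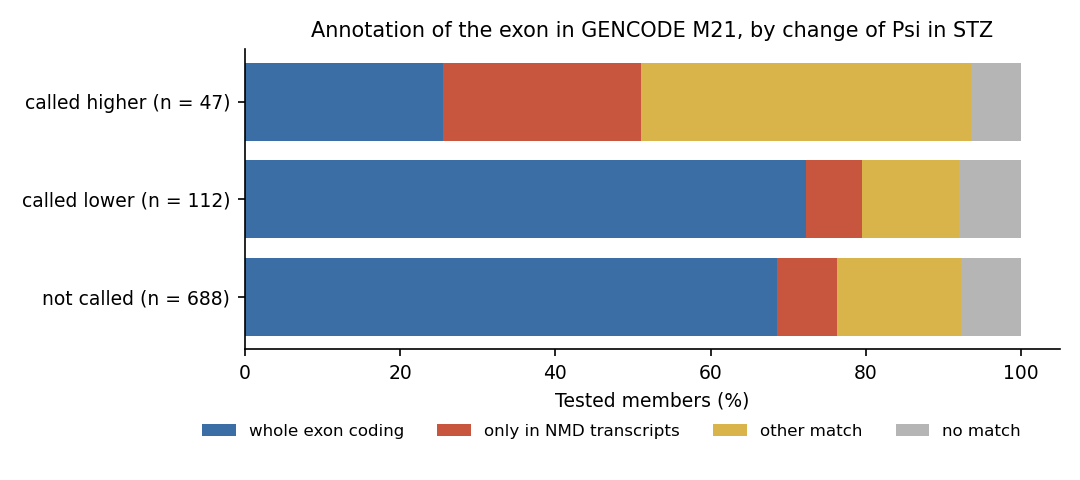
Share of the short-intron exons (x axis, percent) by the GENCODE M21 transcript they matched, for 688 exons not called, 112 called lower and 47 called higher in STZ. Wholly coding exons make up 72.3% of the lower bar and 25.5% of the higher bar, and exons found in nonsense-mediated decay transcripts but in no protein-coding one make up 7.14% and 25.5%.

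The share of exons that keep the reading frame was counted as well. A length that is a multiple of 3 was found in 63 of the 112 exons that fell (56.3%), in 16 of the 47 that rose (34.0%) and in 280 of the 688 not called (40.7%). Among wholly coding exons the counts were 51 of 81 that fell (63.0%), 7 of 12 that rose (58.3%) and 210 of 472 not called (44.5%), so rises and falls were close in this subset. In all tested exons of the study, 49.2% of those that fell and 45% of those that rose were of such a length, and among its wholly coding exons the order was the other way, with 57.4% of 303 that fell and 67.7% of 93 that rose. Examples among the falls are Ehmt2 (102 nt), Hdac7 (111 nt), Chd3 (102 nt) and Kdm5c (138 nt), whereas Kat7 (107 nt) shifts the frame when skipped.

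The level of inclusion in Control divided the directions. Among 547 exons with Control Psi above 0.8, 8 rose and 70 fell; among 161 between 0.2 and 0.8, 14 rose and 31 fell; and among 139 below 0.2, 25 rose and 11 fell. An exon near 1 can only fall and one near 0 can only rise, which bounds these counts. The length of the introns was set beside the calls too. None of the 12 tested exons whose longer intron was under 100 nt was called by limma on Psi, 1 of them had an unadjusted p under 0.05, and 2 were called in the fit to reads. Where the longer intron was 100 to under 200 nt, 16 of 88 were called, against 53 of 303 from 200 to under 500 nt and 90 of 444 from 500 nt up. By exon length, 66 of 389 exons under 100 nt, 76 of 386 from 100 to under 200 nt and 17 of 72 of 200 nt or more were called. Counts by Control inclusion, intron length and exon length were not made over the whole study. They therefore cannot be called particular to short-intron exons. Of all tested exons of the study, 4.84% were called higher and 10.1% lower.

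The smallest pair of introns by their sum is held by Hsf1, the master regulator of the heat shock response, whose 66-nt exon lies between introns of 77 and 70 nt. Psi was 0.72 and 0.80 in Control and 0.67, 0.66 and 0.74 in STZ, the groups overlapped, and the adjusted p was 0.362 in limma. Stap2, an adaptor protein, has a 93-nt exon between introns of 80 and 70 nt at 0.97 and 0.97 against 0.98, 0.99 and 0.98 (adjusted p 0.224). Neither passed the test. At the limits of the rule stand Msc with an exon of 37 nt (mean Psi 0.255 in Control and 0.237 in STZ), Gm14548 with one of 297 nt (0.965 and 0.957) and Tmem219 with an intron of 999 nt (0.855 and 0.80). Just outside are Cnot10 (36 nt, 0.95 and 0.973), Ormdl2 (300 nt, 0.575 and 0.743) and Mok (an intron of 1000 nt, 0.36 and 0.62).

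The best covered short-intron exons were near complete inclusion in every library. Among them were Tpt1, Aldoa, Cox5b, Mpc1, Rpl11 and Psap, with 10350 to 92222 inclusion-only reads in each library. Psi lay between 0.99 and 1.00 in these 6 exons and all 5 libraries. None could be called by limma on Psi, because values above 0.99 were set to 0.99 before the fit. That made all 5 libraries equal in these exons, so the fit says nothing about a change in them. In the fit to reads Tpt1, a translationally controlled protein, was called lower (a log2 odds change of -2.78, adjusted p 0.0211), with 6 and 19 against 136, 112 and 94 exclusion-only reads beside 54765 to 92222 of inclusion. These genes serve glycolysis (Aldoa), the respiratory chain (Cox5b), pyruvate import into mitochondria (Mpc1), ribosomes (Rpl11) and lysosomes (Psap). Several have processed pseudogenes elsewhere in the genome, and the part of such copies in the split of their reads was not tested. The list of genes of mitochondria and metabolism as a whole had 3 falls and no rise among 22 tested short-intron exons (13.6% called, against 9.14% of that list's tested exons in the whole study): Opa1 (0.28 and 0.30 against 0.19, 0.17 and 0.19), Acad8 (0.99 and 0.99 against 0.96, 0.97 and 0.97) and Mff (0.03 and 0.03 against 0.02 in each STZ library). Mean Psi changed by -0.107 in Opa1, and by only -0.0233 in Acad8 and -0.01 in Mff. For Acad8 no exclusion-only read was counted in any library, beside 1374 inclusion-only reads in Control and 565 in STZ. The call in Mff held with each library left out, that in Acad8 was lost on leaving out any library but STZ A, and that in Opa1 whichever library was left out.

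Exons of the cytoskeleton, sarcomere and adhesion list changed in both directions, with 5 rises and 5 falls among 27 tested (37%, against 20.6% of that list's tested exons in the whole study). A pair of the rises are overlapping events on 1 exon of Zyx and are not independent. The list was drawn by gene symbol. Its calls include a rise in Ankrd9 and a fall in Ankrd16, whose place in this group was not checked. Myl6 encodes a myosin light chain of smooth muscle and other cells. Its 45-nt exon was at 0.25 and 0.29 in Control and at 0.06, 0.08 and 0.06 in STZ. The adjusted p was 0.0129 in limma, and the call was lost without either Control library or STZ C. Smooth muscle markers were lower in STZ, and whether they had a part in this change was not tested. Zyx, a protein of focal adhesions, had a 93-nt exon at 0.67 and 0.68 against 0.82, 0.83 and 0.84 (adjusted p 0.00714), and Ctnnal1, a relative of alpha-catenin, had a 43-nt exon at 0.02 and 0.02 against 0.23, 0.31 and 0.30 (adjusted p 0.0066), both held with each library left out. Obsl1, a relative of the sarcomere protein obscurin, had a 115-nt exon at 0.31 and 0.32 against 0.15, 0.16 and 0.14 (adjusted p 0.00977, lost without Control A or Control B). The replicates of Zyx and Obsl1 were within 0.02 of each other, far closer than the groups.

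The remaining lists had shares near or below those of the whole study. Genes of ubiquitin and protein turnover had 1 rise and 3 falls among 32 exons (12.5% against 12.8%), and genes of membrane traffic and small GTPases had 1 rise and 4 falls among 34 (14.7% against 14.6%). Kinases, phosphatases and signalling genes had 2 rises and 1 fall among 29 (10.3% against 14.4%), and ion channels and transporters had 2 rises and 5 falls among 44 (15.9% against 19.5%). All lists were drawn by gene symbol, so a list can hold genes of other function. The called exons of the ion channel and transporter list were in Trpm4, Cacna1h, Atp6ap1, Tmem147, Tmem150a, Tmem179b and Tmem14c. In 5 of these 7 fewer than 10 exclusion-only reads were counted over all libraries. Trpm4, Cacna1h and Atp6ap1 had none in any library. Their mean Psi in Control and STZ was 0.995 and 0.973, 0.95 and 0.98, and 0.985 and 0.943. The 565 exons in no list held 31 rises and 68 falls.

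In the authors' deposited table values, 52 of the 1014 short-intron exons (5.13%) differed by 0.20 or more in the same direction in all 6 comparisons, each with a Bayes factor of 10 or more, against 3.22% of all exons. Of these, 17 were higher in STZ and 35 lower, against 1.07% and 2.15% of all exons. Tested by limma were 51, and 49 of them were called in the same direction. Ssbp4 (adjusted p 0.0606) and Pcsk7 (adjusted p 0.0771) were not called, and Sema6c (0.86 and 0.87 against 0.09, 0.04 and 0.24) had too few reads to be tested. Among the 52 not yet described were falls in Pck2, the mitochondrial enzyme that makes phosphoenolpyruvate (0.95 and 0.96 against 0.63, 0.60 and 0.63), in Nbr1, a receptor of autophagy (0.94 and 0.96 against 0.61, 0.68 and 0.58), and in Kansl1, a subunit of a histone acetyltransferase complex (0.92 and 0.90 against 0.57, 0.65 and 0.58). Further falls were in Egfl7, a factor secreted by endothelial cells (0.93 and 0.97 against 0.70, 0.70 and 0.66), in Mlx, a partner of glucose-responsive transcription factors (0.97 and 0.92 against 0.70, 0.63 and 0.57), and in Dmwd (0.68 and 0.70 against 0.31, 0.33 and 0.29). The rule of the same direction in all 6 comparisons places every STZ value of these 6 exons below both Control values. The calls in Pck2 and Dmwd held with each library left out. The call in Nbr1 was lost without Control B, that in Kansl1 without Control A or STZ C, that in Egfl7 on leaving out any STZ library and that in Mlx whichever library was left out.

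Reads that fit neither isoform, a readout that Psi does not use, made up about 50% of the reads on a short-intron exon. The median share was 50% and 49.3% in Control and 48.0%, 50% and 49.6% in STZ, so the groups overlapped. Over exons between long introns of the same lengths the median share was 61.2% in Control and 61.6% in STZ. Compared by limma on the log2 odds of this share, 151 of the 1014 short-intron exons (14.9%) were called, 69 higher and 82 lower, against 24.4% of all 6331 exons (9.76% higher and 14.6% lower). The share called was 24.3% over exons with 1 short intron and 26.5% over those between long introns. Leaving out 1 library at a time gave between 36 calls (without Control A) and 163 calls (without STZ A). In 27 of the 847 exons tested for Psi both this share and Psi were called, against 230 of 4769 in the whole study.

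The largest rise of this share was in Ggcx, whose Psi was described above. Reads that fit neither isoform made up 46.8% and 45.3% in Control and 96.7%, 96.3% and 97.2% in STZ (adjusted p 4.38e-05). Nearly all reads over this event in STZ thus fit neither annotated isoform, and its inclusion-only reads were 219 and 313 against 17, 16 and 10. In Limk2, a kinase of the actin cytoskeleton, the share was 49.0% and 49.3% against 83.3%, 86.4% and 79.6% (adjusted p 0.00148), and in Yipf2 it was 79.1% and 75.9% against 98.8%, 98.6% and 98.2% (adjusted p 0.00025). Rbm7, with its large rise of Psi, also had a higher share, of 20.1% and 20.4% against 45.1%, 48.5% and 48.1% (adjusted p 0.000486). The share fell in Sipa1, an activator of Rap GTP hydrolysis, from 96.7% and 95.1% to 83.6%, 84.4% and 82.8% (adjusted p 0.00102), in Gm15892 from 95.0% and 84.0% to 48.6%, 50.4% and 51.4% (adjusted p 0.00352), and in Dlg4 from 91.1% and 87.9% to 50%, 59.3% and 70.0% (adjusted p 0.00871, lost without Control A or Control B). Apart from Dlg4, the calls of this paragraph held with each library left out.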

How the data were processed

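RNA of mouse left ventricle was sequenced in 2 Control and 3 STZ samples. Reads were handled with CASAVA 1.8.2 and TopHat on mm9, per the submitters' processing notes; for the versions of TopHat and MISO and the event annotation, the entry is "not given in the sources used here". Psi is a fraction deposited by the authors, a MISO posterior mean with 2 decimals, per the file headers. The read classes were deposited by the authors as counts per event and library, per the file headers. The Bayes factor is a ratio deposited by the authors for 1 library against another, and 8 values are infinite. No library was pooled, 36 further columns of values per library were not used, and no value of a library differed between tables.

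Psi was clipped to 0.01 to 0.99 and compared on the log2 odds scale in limma 3.58.1 (R 4.3.3), two-sided, with a variance trend on log2 mean informative depth. The share of reads that fit neither isoform was compared in the same way, with 0.5 added to each class, over events with at least 20 reads in every library. Both fits were tested on simulated data, and each covered all events of the study. The rule on the authors' tables was a difference of 0.20 or more with a Bayes factor of 10 or more. Exons were annotated with GENCODE M21, a build other than mm9, by the lengths of the exon and both introns (939 of 1014 exons); 34 took the gene of an overlapping exon, 32 that of the file and 4 that of the skipping junction, and 5 have no name. Of the length matches with a gene in the file, 523 gave the same gene and 11 another.

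The 12 largest called rises and falls without overlap, 6 of the 8 deepest exons, the exons past the authors' rule, the 3 largest changes of the unfitting share each way and the exons at the limits of the rule were named; members of the gene lists and the 8 exons whose sequences are shown were chosen from them or from the called exons after their values were seen. A few exons are not reported here. The members and lists were chosen with earlier results of these data known. Alternatives covered the clipping, the minimum of reads, the prior variance, the read classes, the intron limit, the authors' thresholds and each library left out.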

Additional observations from a re-analysis of the deposited data

How the results depend on the processing

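Leaving out 1 library gave 70 (without Control B) to 94 (without STZ A) called short-intron exons against 159, and 36 (without Control A) to 163 (without STZ A) called shares of unfitting reads against 151. Both introns under 500 nt left 69 called exons of 403 tested and 48 called shares of 482, and a limit of 1500 nt gave 254 called shares of 1465, since these settings change the number of exons. A difference of at least 0.10 in the authors' tables gave 81 exons against 52. The count of called exons with at least 10 exclusion-only reads, chosen after the data were seen, was 130. Of the named exons, Arvcf reversed in the log odds of reads (1.00); the cause was not tested. Between 19 and 23 of the 57 named tested exons lost their call with a library left out. The 57 include exons with no call to lose, such as Hsf1 and Tpt1, so the share among called exons was higher. Under the remaining alternatives the count of called exons lay between 113 and 209. No paired analysis was possible because the table codes carry no replicate numbers. With 2 and 3 libraries, changes of low-coverage exons may have gone uncalled.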
